A study of Mus musculus with 9 samples.

Results

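Small nucleolar RNAs (snoRNAs) and the genes that carry them were followed in mouse calvarial osteoblasts exposed to either of 2 parathyroid hormone peptides. A gene was included if a transcript cluster, the array's unit for one gene, carried a single annotated symbol beginning with Snord, Snora or Snhg, and each gene was read from its cluster with the highest mean over the 9 arrays. This gave 88 genes of 22180 with a single-symbol cluster, namely 47 box C/D snoRNAs (Snord), 26 box H/ACA snoRNAs (Snora) and 15 small nucleolar RNA host genes (Snhg). Gas5, a further host gene, was named by a cluster it shares with another gene and was not analysed here, as were 29 other Snord, Snora and Snhg symbols found on shared clusters alone.

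The cells came from the calvaria of C57BL/6J mice 7 to 10 days old, were used at passage 2, entered differentiation medium on day 3 and were without serum for 24 h from day 10. The groups were 3 arrays of cells given 100 nM human PTH(1-34), written hPTH(1-34), 3 given 1 µM bovine (D-Trp12,Tyr34) PTH(7-34) amide, written bPTH(7-34), and 3 given vehicle, each for 4 h in medium without serum. The 2 peptide doses differed, so a difference between the peptide groups is a difference between the groups as dosed. Total RNA, 100 ng per sample, was labelled and hybridised to 1 array each (Affymetrix Mouse Gene 2.0 ST). Per the series text the replicates are separate cell preparations. It leaves unsaid if the 3 treatments of a number shared a preparation, so the p-values measure the spread among these 9 samples.

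snoRNAs are short nucleolar RNAs that pair with ribosomal and other RNAs. Box C/D snoRNAs guide methylation of the ribose, box H/ACA snoRNAs guide conversion of uridine to pseudouridine, and a few of both families act in cutting the ribosomal RNA precursor. In mammals most lie in introns and are released when the host transcript is spliced and the intron is trimmed. Many hosts encode ribosomal or nucleolar proteins, while the Snhg genes are known mainly as carriers of the snoRNAs in their introns. Several Snhg transcripts begin with a run of pyrimidines, the terminal oligopyrimidine (TOP) start of translation-regulated mRNAs, and their spliced forms are broken down by nonsense-mediated decay. hPTH(1-34) activates the PTH receptor, which raises cAMP in osteoblasts. bPTH(7-34) lacks the first residues of the hormone and is known as an antagonist of that response.

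Promoter sequence was available from RefSeq (GRCm38.p6, 250 bases before to 50 after each annotated start) for 13 of the 15 measured Snhg genes. It was searched on both strands for TGACGTCA, the full cAMP response element, for TGACG, its core, which every full element contains, and for CACGTG, the E-box, and at the start itself for a C opening a run of at least 5 pyrimidines. The windows shown belong to Nop58, the gene around the snoRNA with the smallest p in the data, to Snhg15, the measured Snhg gene with a full element, to Snhg18, the Snhg gene with the smallest p, and to Snhg7, the measured Snhg gene with such a pyrimidine start. Capitals mark the motif matches, or in Snhg7, shown as 60 bases around its start, the pyrimidine run that opens the transcript.
Nop58, chr1:59684756-59685055, plus strand: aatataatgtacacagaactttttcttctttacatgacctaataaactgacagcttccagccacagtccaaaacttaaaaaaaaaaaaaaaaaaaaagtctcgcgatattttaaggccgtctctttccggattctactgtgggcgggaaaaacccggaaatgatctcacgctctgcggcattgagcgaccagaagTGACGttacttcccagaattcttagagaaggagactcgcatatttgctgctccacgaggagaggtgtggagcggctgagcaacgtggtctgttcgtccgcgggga
Snhg15, chr11:6528711-6529010, minus strand: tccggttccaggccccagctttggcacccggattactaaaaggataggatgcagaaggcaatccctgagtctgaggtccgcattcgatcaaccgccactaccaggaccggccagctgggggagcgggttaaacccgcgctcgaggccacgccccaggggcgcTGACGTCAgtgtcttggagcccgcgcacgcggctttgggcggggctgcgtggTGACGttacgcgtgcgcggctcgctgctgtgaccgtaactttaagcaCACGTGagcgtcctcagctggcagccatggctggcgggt
Snhg18, chr15:32244613-32244912, minus strand: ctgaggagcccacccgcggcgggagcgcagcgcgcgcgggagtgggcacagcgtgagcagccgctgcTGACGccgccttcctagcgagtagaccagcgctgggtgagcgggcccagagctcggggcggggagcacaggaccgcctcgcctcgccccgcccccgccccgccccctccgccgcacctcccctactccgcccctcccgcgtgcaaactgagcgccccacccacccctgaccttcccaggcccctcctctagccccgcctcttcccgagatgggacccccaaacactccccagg
Snhg7, chr2:26640205-26640264, minus strand: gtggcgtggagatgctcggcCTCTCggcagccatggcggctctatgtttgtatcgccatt

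The full element was in 1 of the 13 genes (Snhg15), against 1.79% of all 32851 promoter windows of this length. These windows come from 27025 genes, so the shares here are of windows and the counts are of genes. The core was found in 3 (Snhg12, Snhg15 and Snhg18), against 20.8% of all windows, and an E-box in 2 (Snhg9 and Snhg15), against 7.15%. The pyrimidine start was found in Snhg7 alone, against 2.51% of all windows. Nop58 had the core at -55 from its start and no full element or E-box. The window of Nop56, the gene around Snord110, had none of these motifs. Of the 38 windows of host genes other than Snhg and Gas5, 44.7% held the core, 23.7% an E-box, 2.63% the full element and 7.89% the pyrimidine start. The pyrimidine search reads the annotated start alone, so a gene without a match is not shown to lack such a start. A match describes these letters in this window and nothing about a factor.

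Signals of the snoRNA clusters covered nearly the whole range of the array. The mean over the 9 arrays ran from 1.06 to 11.51 on the log2 scale, with a median of 6.02, against a median of 2.14 over all tested clusters. Levels of different clusters come from different probes, so a higher signal is not a larger amount of RNA. A background limit of 1.69 was taken as the 95th percentile of vehicle means of 1105 olfactory receptor genes, a family with no known role in osteoblasts. With hPTH(1-34) 65 of 73 snoRNAs lay above it, against 64 with bPTH(7-34) and 64 with vehicle. Of the 15 Snhg genes, 14 lay above it in each group, Snhg14 being the exception. In all, 7 genes were below it in all 3 groups, namely Snhg14, Snora19, Snora20, Snora41, Snord37, Snord85 and Snord90. The array cannot tell a mature snoRNA from the intron of an unspliced host transcript, and column kits of the kind used retain mainly RNA longer than a snoRNA. The annotated snoRNAs were 48 to 221 bases long, with a median of 83.

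The cultures carried the collagen signal of osteoblasts, with Col1a1 at 12.29 ± 0.14 with hPTH(1-34), 12.27 ± 0.09 with bPTH(7-34) and 12.29 ± 0.11 with vehicle (log2, SD, n = 3). Bglap, which encodes osteocalcin of mature osteoblasts, was below the background limit in all 3 groups (1.48 with hPTH(1-34), 1.44 with bPTH(7-34) and 1.25 with vehicle). Alpl, the alkaline phosphatase of osteoblasts, read 6.32, 6.73 and 6.38 with hPTH(1-34), 5.32, 5.62 and 5.51 with bPTH(7-34), and 5.26, 5.86 and 5.39 with vehicle. Its hPTH(1-34) values were above all others. The difference was 0.97 ± 0.17 from vehicle (adjusted p = 0.0601, limma) and 0.99 ± 0.17 from bPTH(7-34) (adjusted p = 0.0539). Over the 8 osteoblast markers measured, the median change with hPTH(1-34) was 0.005 and 4 were positive. Alpl alone was higher at an unadjusted p under 0.05, against 5.53% of all clusters. With bPTH(7-34), Sp7 was at 0.58 ± 0.21 from vehicle (adjusted p = 0.999, limma), with groups that overlapped. Its mean was below the background limit with vehicle (1.45) and hPTH(1-34) (1.53) and above it with bPTH(7-34) (2.03). Markers of other cells were also above the limit with vehicle, 7 of 7 for macrophages and osteoclasts, 4 of 5 for adipocytes, 4 of 5 for skeletal muscle, 3 of 5 for endothelium and 5 of 5 for cartilage, and 0 of these genes passed the test in any comparison. The adipocyte gene Fabp4 read 8.64, 7.71 and 8.34 with hPTH(1-34), 8.12, 7.45 and 7.66 with bPTH(7-34) and 7.68, 7.14 and 7.31 with vehicle. The hPTH(1-34) values were above the vehicle values (adjusted p = 0.299, limma). Of the 5 adipocyte markers, Lep was below the background limit. Fabp4 had the highest mean over the 9 arrays, 7.78, and Adipoq the next, 4.41. The summed linear signal of the 5, made up mostly of Fabp4, was 252.5 to 481.3 with hPTH(1-34), 213.3 to 340.3 with bPTH(7-34) and 180.4 to 264.6 with vehicle. Its part in the values that follow was not tested. In cultures of mixed cells, fewer cells of a type and less RNA per cell cannot be told apart. Medians of the 9 arrays over all clusters lay between 1.67 and 1.76.

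hPTH(1-34) against vehicle asked whether the active hormone altered these RNAs at 4 h. None of the 88 genes passed an adjusted p of 0.05 in limma (Benjamini-Hochberg over all 23521 tested clusters), where 0.451% of all clusters (106) did, 0.310% higher and 0.140% lower. At an unadjusted p under 0.05 the count was 4 of 88, against 9.31% of all clusters, with 2 members higher (5.53% of all clusters) and 2 lower (3.78%). The 3 arrays of each group did not overlap for 6 of 88, against 10.7% of all clusters, with Snord11, Snord43, Snora33 and Snhg3 higher (6.08%) and Snora2b and Snhg18 lower (4.58%). The median change was -0.03 for the 73 snoRNAs and 0.06 for the 15 Snhg genes on the log2 scale, beside 0.00 for all tested clusters. Of the snoRNAs, 27 had a higher mean and 45 a lower mean with hPTH(1-34), where 11740 of all 23521 clusters were higher and 11536 lower. Single snoRNA changes ran from -0.41 to 0.74. For 65 of the 73 snoRNAs the 95% interval of the change lay within a 2-fold change in either direction, against 95.4% of all clusters. Precision was lower for snoRNAs than for most genes, since the interval reached 0.41 to either side in the median snoRNA, against 0.30 in the median cluster.

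**Figure D1:**
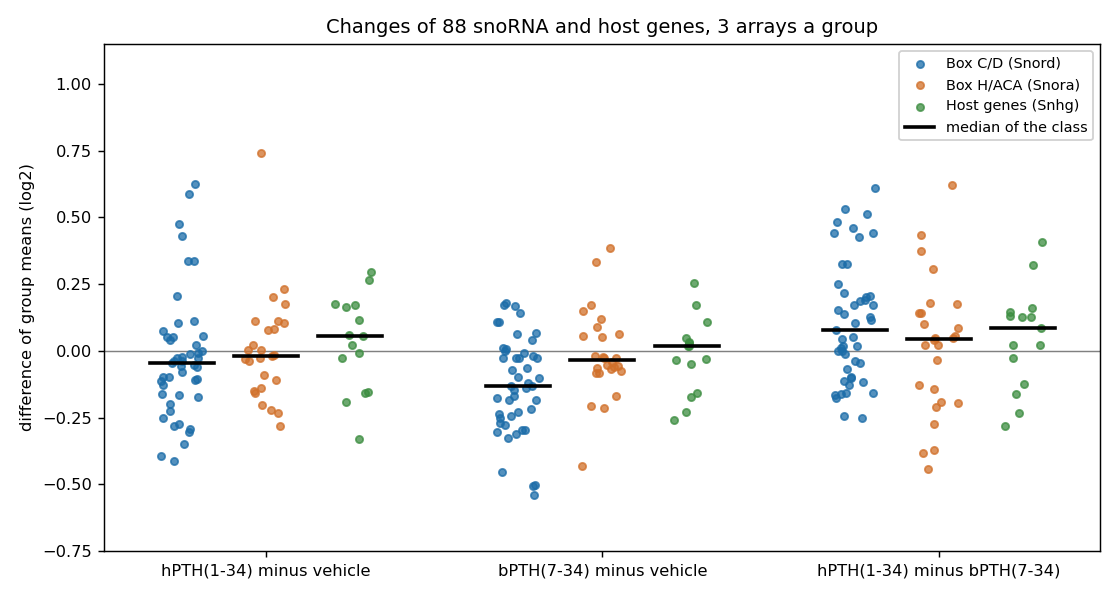
Differences of group means (log2, 3 arrays a group) for the 47 box C/D snoRNAs, 26 box H/ACA snoRNAs and 15 Snhg genes in the 3 comparisons, with 1 point per gene and a black bar at each class median. Class medians lay between -0.13 and 0.09, and no gene shown passed an adjusted p of 0.05.

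The box C/D snoRNA with the smallest p was Snord11, which lies within Nop58. It read 4.83, 4.78 and 5.07 with hPTH(1-34), 4.49, 4.47 and 4.34 with bPTH(7-34), and 4.49, 4.06 and 4.25 with vehicle. Every hPTH(1-34) value was above every value of the other 2 groups, while the other 2 groups overlapped. The change was 0.63 ± 0.13 (log2, SE), a fold of 1.54, with a 95% interval of 0.34 to 0.92 and an adjusted p of 0.0967 in limma. With the test restricted to clusters averaging 3 or more (log2), the same difference had an adjusted p of 0.0480, and Snord11 was then the single member to pass. Over the 18 alternatives the adjusted p ran from 0.0480 to 0.306 and the change from 0.52 to 0.74.

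Snord43, in the ribosomal protein gene Rpl3, was the other box C/D member with higher values. Its 3 values were 3.20, 3.00 and 3.47 with hPTH(1-34), 2.91, 2.68 and 2.75 with bPTH(7-34), and 2.84, 2.84 and 2.23 with vehicle. The hPTH(1-34) arrays were again above all others, and the change of 0.59 ± 0.18 had an adjusted p of 0.322 (limma). Snord8, within both Chd8, a chromatin remodeller, and Gm26590, lay the other way. It read 6.57, 6.60 and 6.87 with hPTH(1-34), 7.00, 6.87 and 6.90 with bPTH(7-34), and 6.86, 7.29 and 7.13 with vehicle. The hPTH(1-34) and vehicle values overlapped by 0.01, and the change of -0.41 ± 0.13 had an adjusted p of 0.326 (limma). Snord71, Snord61 and Snord22 completed the 6 with the smallest p, at -0.39, -0.20 and -0.27, and their adjusted p-values were 0.685, 0.721 and 0.660. Snord22 (U22), which acts in processing of small subunit ribosomal RNA, read 9.93, 9.55 and 10.08 with hPTH(1-34), 10.24, 9.96 and 10.12 with bPTH(7-34), and 9.96, 10.36 and 10.06 with vehicle, so that the groups overlapped.

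Among box H/ACA snoRNAs the smallest p belonged to Snora75, in the nucleolin gene Ncl. It read 1.53, 2.66 and 2.53 with hPTH(1-34), 1.10, 1.49 and 2.27 with bPTH(7-34), and 1.36, 1.20 and 1.94 with vehicle. Several of these values are under the background limit, the groups overlapped, and the change of 0.74 ± 0.37 had an adjusted p of 0.595 (limma). The next 5 by p were Snora2b, Snora15, Snora35, Snora21 and Snora69, with changes of -0.20, -0.16, 0.20, -0.28 and -0.22 and adjusted p-values of 0.643 to 0.799. Snora33, in the ribosomal protein gene Rps12 and named for its signal, read 11.63, 11.52 and 11.67 with hPTH(1-34), 11.68, 11.23 and 11.37 with bPTH(7-34), and 11.51, 11.47 and 11.51 with vehicle. Its hPTH(1-34) values lay above the vehicle values by 0.01 or more, and the change of 0.11 ± 0.12 had an adjusted p of 0.830. Other snoRNAs named for their signal had changes of -0.11 (Snord82, in Ncl), -0.13 (Snord47, at the Gas5 locus) and -0.03 (Snora16a, in Snhg12).

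**Figure D2:**
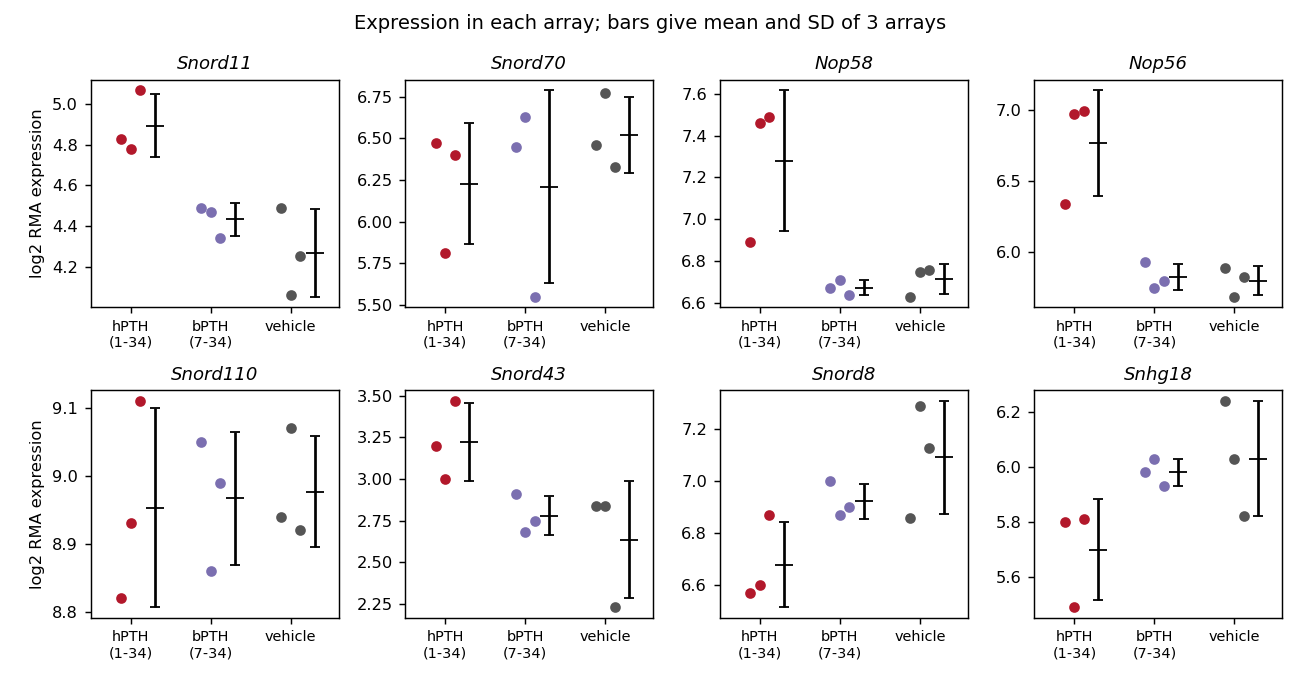
Log2 RMA expression of 5 snoRNAs and host genes Nop58, Nop56 and Snhg18 in each of the 9 arrays, with hPTH(1-34) at the left, bPTH(7-34) in the middle and vehicle at the right. Black bars give the mean and SD of 3 arrays, and each panel has its own scale. Snord11, Snord43, Nop58 and Nop56 have all 3 hPTH(1-34) points above the other 6, and Snord110 and Snord70 do not.

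Among the Snhg genes, Snhg18 had the smallest p. It read 5.80, 5.49 and 5.81 with hPTH(1-34), 5.98, 6.03 and 5.93 with bPTH(7-34), and 6.24, 6.03 and 5.82 with vehicle. The hPTH(1-34) values were below all others, by 0.01 at the closest vehicle array, and the change of -0.33 ± 0.13 had an adjusted p of 0.462 (limma). Snord123, which Snhg18 contains, was at -0.03. Snhg3, which carries the 2 copies of the U17 snoRNA, read 3.29, 3.30 and 3.44 with hPTH(1-34), 3.21, 3.16 and 3.22 with bPTH(7-34), and 3.21, 3.21 and 3.12 with vehicle. All 3 hPTH(1-34) values were the higher ones, and the change was 0.16 ± 0.08 (adjusted p = 0.607). For its snoRNAs Snora73a and Snora73b the differences were -0.14 and -0.23.

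The other 13 Snhg genes had hPTH(1-34) values that overlapped those of vehicle in the cluster used. Snhg6 read 6.67, 6.79 and 6.99 with hPTH(1-34), 6.49, 6.83 and 6.65 with bPTH(7-34), and 6.68, 6.30 and 6.67 with vehicle, a change of 0.27 (95% interval -0.05 to 0.59). Snhg15, with the full cAMP response element in its promoter, read 3.16, 3.48 and 2.91 with hPTH(1-34), 3.16 on all 3 bPTH(7-34) arrays, and 3.15, 3.25 and 2.98 with vehicle. Its change was 0.06 ± 0.14, with values on both sides of those with vehicle. Snhg7, with the pyrimidine start, was at -0.03 ± 0.18. Snhg12, the host of 4 measured snoRNAs, was at 0.30 ± 0.21, and those 4 (Snora16a, Snora44, Snora61 and Snord99) at -0.03, -0.09, -0.02 and -0.04. Differences of the remaining Snhg genes were 0.12 in Snhg1, 0.17 in Snhg10, -0.15 in Snhg11, -0.01 in Snhg14, 0.18 in Snhg17, -0.16 in Snhg20, 0.02 in Snhg4, 0.06 in Snhg5 and -0.19 in Snhg9, and their adjusted p-values were 0.672 or higher. The clusters of Snhg17 disagreed, with one of the others at -0.35 and another at 0.39, where the values of 2.84, 2.24 and 2.17 with hPTH(1-34) lay above 2.10, 2.04 and 1.95 with vehicle (adjusted p = 0.523, limma).

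bPTH(7-34) against vehicle addressed the shortened analog at 1 µM. None of the 88 genes and none of all 23521 clusters (0%) passed an adjusted p of 0.05 in limma. At an unadjusted p under 0.05 there were 3 of 88 members, against 3.32% of all clusters, with 0 members higher (1.86% of all clusters) and 3 lower (1.45%). The groups did not overlap for 1 member, against 5.29%, with 0 higher (2.90%) and 1 lower (2.39%), namely Snord37, which lay below the background limit. The median change was -0.06 for snoRNAs, -0.13 for the box C/D class alone and 0.02 for the Snhg genes, beside 0.00 for all clusters. A lower mean with bPTH(7-34) was seen in 52 of 73 snoRNAs and in 11276 of all 23521 clusters.

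Those 3 members were Snora7a, Snord47 and Snord72. Snora7a, in the ribosomal protein gene Rpl32, read 3.80, 3.66 and 4.21 with bPTH(7-34) and 4.21, 4.21 and 4.54 with vehicle, a change of -0.43 ± 0.17. Snord47, at the Gas5 locus, read 10.39, 9.95 and 9.67 with bPTH(7-34) and 10.30, 10.67 and 10.40 with vehicle, a change of -0.45 ± 0.18. Snord72, in Rpl37, read 6.06, 5.21 and 5.85 with bPTH(7-34) and 6.06, 6.52 and 6.06 with vehicle, a change of -0.51 ± 0.21. In all 3 genes the top bPTH(7-34) array equalled or lay within the vehicle values, and each adjusted p was 0.999. Snord49a had the lowest change, -0.54 ± 0.26, with 8.66, 8.55 and 7.68 under bPTH(7-34) and 8.49, 9.18 and 8.84 with vehicle, and its groups overlapped as well. Among the hosts of these snoRNAs, Rpl32 was at -0.02, Rpl37 at -0.46 ± 0.16 (adjusted p = 0.999, with a mean of 1.93 close to the background limit) and 2410006H16Rik at 0.24.

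The median over snoRNAs depended on single arrays. Without vehicle array 2 the hPTH(1-34) median was 0.00 in place of -0.03. Without bPTH(7-34) array 2 the bPTH(7-34) median was 0.02, and without bPTH(7-34) array 1 it was -0.15. As a class, the 47 box C/D snoRNAs deviated from their own 9-array means by a median of 0.17 on vehicle array 2, with 35 of 47 above, and by -0.16 on bPTH(7-34) array 2, with 37 of 47 below. bPTH(7-34) array 1 was on the high side, at 0.11 with 38 of 47 above. The 26 box H/ACA snoRNAs deviated by -0.19 on bPTH(7-34) array 2 and by no more than 0.04 in either direction on the other 8 arrays. The medians of all tested clusters stayed between -0.01 and 0.00 on every array. The median SD within a group was 0.226 for the snoRNAs, 0.170 for the Snhg genes and 0.140 for all tested clusters.

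**Figure D3:**
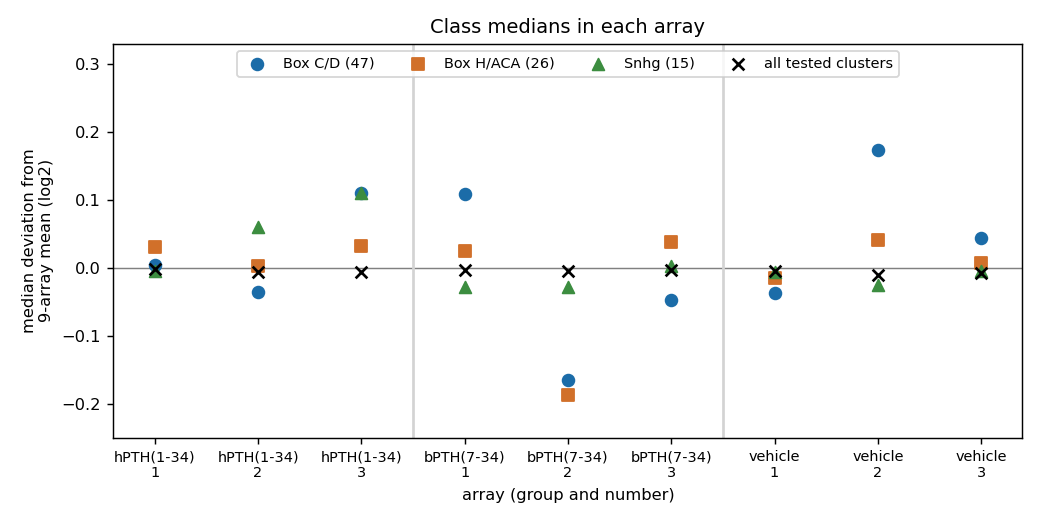
Median deviation from the 9-array mean (log2) in each array for box C/D snoRNAs, box H/ACA snoRNAs, Snhg genes and all tested clusters, with hPTH(1-34), bPTH(7-34) and vehicle arrays from left to right. Box C/D medians spread from -0.16 on bPTH(7-34) array 2 to 0.17 on vehicle array 2, while all clusters stay near 0.

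Some members had their lowest value on the same array number in all 3 groups. The 4 named here were picked after their values were seen. Snora73a read 6.54, 7.37 and 7.65 on hPTH(1-34) arrays 1, 2 and 3, 7.12, 7.46 and 7.57 on those of bPTH(7-34), and 6.64, 7.46 and 7.88 on those of vehicle. Snora73b read 6.70, 7.47 and 7.91 with hPTH(1-34), 7.44, 7.93 and 7.86 with bPTH(7-34), and 6.98, 7.74 and 8.06 with vehicle. In both U17 snoRNAs array 1 was the lowest of each group. Snora68 and Snord104 had their lowest value on array 1 in each group too, Snord104 at 8.02 with hPTH(1-34), 8.38 with bPTH(7-34) and 8.08 with vehicle. In a limma fit with group and array number as terms, chosen after the data were seen, the number passed an adjusted p of 0.05 in 0 of 88 members (0.213% of all clusters). At an unadjusted p under 0.05 it was 13 of 88, against 10.1% of all clusters, and Snora73a had an adjusted p of 0.141. The cartilage gene Col2a1 was lowest on array 1 as well. It read 5.92 there with hPTH(1-34), 5.90 with bPTH(7-34) and 5.99 with vehicle, against 7.07 or more on the other 6 arrays. None of the other cartilage markers (Sox9, Acan, Col10a1 and Matn3) was lowest on array 1 alone in every group. Sox9 was lowest on array 3 with hPTH(1-34), at 6.56, and on array 2 with vehicle, at 6.45. The osteoblast gene Ibsp was lowest on array 1 in each group, and the adipocyte gene Adipoq was highest there. The part of these genes in the snoRNA values was not tested.

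hPTH(1-34) against bPTH(7-34) set the 2 peptides beside each other at their unequal doses. None of the 88 members passed an adjusted p of 0.05 in limma, against 0.463% of all clusters (109), 0.332% higher and 0.132% lower. At an unadjusted p under 0.05 there were 6 of 88, against 9.52%, with 5 members higher (5.30% of all clusters) and 1 lower (4.22%). The groups did not overlap for 4 members, against 11.1% of all clusters, with Snord11, Snord43 and Snhg3 higher (5.99%) and Snhg18 lower (5.10%). The median difference was 0.05 for snoRNAs and 0.09 for the Snhg genes, beside 0.00 for all clusters. The Snord11 difference was 0.46 ± 0.13 (adjusted p = 0.243) and that of Snord43 was 0.44 ± 0.18 (adjusted p = 0.485). Snhg17 read 4.56, 4.49 and 4.95 with hPTH(1-34) against 4.49, 4.29 and 4.00 with bPTH(7-34), and 4.49 on all 3 vehicle arrays. The peptide groups met at 4.49, and the difference of 0.41 ± 0.15 had an adjusted p of 0.425. Its other 2 clusters were at -0.19 and 0.34 in this comparison. Snora7a, Snora35 and Snora34 had differences of 0.43, 0.37 and -0.44, with adjusted p-values of 0.440 to 0.497. Snord37, below the background limit, was at 0.53 (adjusted p = 0.562). A 95% interval within a 2-fold change in either direction held for 63 of 73 snoRNAs and for all 15 Snhg genes, so differences of that size between the peptide groups were outside the interval for those members. The F-test of any difference among the 3 groups called 0 of 88, against 0.383% of all clusters, and 4 members had an unadjusted p under 0.05, against 8.18%.

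Each snoRNA was then set beside the gene around it. By RefSeq gene positions, 64 of the 73 snoRNAs lay inside exactly 1 other gene, 6 inside 2 genes and 3 inside none. The 3 were Snord118 (U8) and Snord13 (U13), which are known to be transcribed from promoters of their own, and Snord89. Strand was not used, so hosts were taken by position alone. A measured host was at hand for 55 snoRNAs in 41 genes, of which 34 encode proteins, 11 of these ribosomal proteins, and 7 are long noncoding RNAs. Among the ribosomal protein hosts, Rpl39, Rpl37 and Rpl17 had means of 1.73, 1.93 and 2.07, close to the background limit. Rpl39 lay below it with vehicle and Rpl37 with bPTH(7-34). Host genes as a group had a median change of 0.10 with hPTH(1-34), with 32 of 41 above vehicle, against 49.9% of all clusters. Of the 41 hosts, 0 passed an adjusted p of 0.05 (0.451% of all clusters). At an unadjusted p under 0.05, 6 were higher, against 5.53% of all clusters, and Snhg18 was lower. With bPTH(7-34) the host median was 0.02. Hosts of the snoRNAs named above were mostly close to vehicle with hPTH(1-34), with Rpl3 (around Snord43) at 0.06, Rps12 (Snora33) at -0.06, Rpl32 (Snora7a) at 0.05 and Ncl (Snord82 and Snora75) at 0.17. Kansl2 (Snora34 and Snora2b), Cct6a (Snora15) and Rbmx (Snord61) were at 0.18 ± 0.16, 0.26 ± 0.13 and 0.21 ± 0.10, where their snoRNAs were below vehicle. None of these hosts and snoRNAs had an unadjusted p under 0.05 (limma). Htr2c, a neuronal serotonin receptor gene around Snora35, lay below the background limit at a mean of 1.19.

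The 6 hosts with higher values, and the snoRNAs within them, were picked after their values were seen. Nop56, a core protein of every box C/D particle, read 6.34, 6.97 and 6.99 with hPTH(1-34), 5.93, 5.75 and 5.80 with bPTH(7-34), and 5.89, 5.69 and 5.83 with vehicle. Its partner Nop58 read 6.89, 7.46 and 7.49 with hPTH(1-34), 6.67, 6.71 and 6.64 with bPTH(7-34), and 6.63, 6.75 and 6.76 with vehicle. In both genes every hPTH(1-34) array was above the other 6, and hPTH(1-34) array 1 was the lowest of its group. Changes were 0.96 ± 0.17 for Nop56 (adjusted p = 0.0534) and 0.57 ± 0.15 for Nop58 (adjusted p = 0.220).

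Nop56 passed an adjusted p of 0.05 in 5 of 18 alternatives, over which its adjusted p ran from 0.00413 without hPTH(1-34) array 1 to 0.437 with its clusters averaged, where the change was 0.36. Without hPTH(1-34) array 1, Nop58 and Wdr43 had an adjusted p of 0.0105 each (limma). Wdr43, of the small subunit processome, read 7.16, 7.54 and 7.80 with hPTH(1-34), 6.89, 6.86 and 6.83 with bPTH(7-34), and 6.76, 6.82 and 6.83 with vehicle, a change of 0.70 ± 0.14 (adjusted p = 0.0990). Gnl3, the nucleolar GTPase nucleostemin, read 6.22, 6.66 and 6.85 with hPTH(1-34), 5.91, 5.78 and 5.61 with bPTH(7-34), and 5.96, 5.55 and 6.09 with vehicle, a change of 0.71 ± 0.19 (adjusted p = 0.216). The hPTH(1-34) arrays of both genes lay above all others. Eif5, a translation initiation factor, and 2410002F23Rik were at 0.42 and 0.36, with adjusted p-values of 0.326 and 0.370.

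These 6 hosts contain 10 of the measured snoRNAs, whose changes ran from -0.29 to 0.63, 6 of them above vehicle and 4 below. Within Nop58, Snord11 was at 0.63 and Snord70 at -0.29. Snord70 read 6.47, 5.81 and 6.40 with hPTH(1-34), 6.45, 6.63 and 5.55 with bPTH(7-34), and 6.46, 6.77 and 6.33 with vehicle, so that its groups overlapped. Within Nop56, Snord110 read 8.82, 8.93 and 9.11 with hPTH(1-34), 9.05, 8.86 and 8.99 with bPTH(7-34), and 8.94, 9.07 and 8.92 with vehicle, a change of -0.02 (95% interval -0.26 to 0.21). Within Wdr43, Snord92 was at 0.43 and Snord53 at 0.07, and within Gnl3, Snord19 was at 0.34 and Snord69 at -0.11. Groups overlapped in all 4 of these snoRNAs.

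These hosts were picked for their own higher values with hPTH(1-34) and the snoRNAs were not. The sizes set side by side are therefore a description. In each of the 10 pairs, host minus snoRNA was compared between hPTH(1-34) and vehicle arrays by an exact permutation test. With 6 arrays its smallest possible p is 0.1, so it cannot decide the question for a single pair. Nop56 with Snord110 had that p (adjusted p over the pairs = 0.5). In the other pairs p ran from 0.2 to 0.8 and the arrays overlapped. Over all 55 pairs the differences of the snoRNA and its host had the same sign in 21 and opposite signs in 31 with hPTH(1-34). In the rest the snoRNA or the host had a change of 0.00. With hPTH(1-34), 32 of 41 hosts but 27 of 73 snoRNAs lay above vehicle. The counts of signs therefore do not show whether a snoRNA moved with or against its own host. The 55 pairs include Htr2c, Snora19, Snora20, Snora41, Snord37 and Snord90, which lay below the background limit in all 3 groups and where a sign says little. As a description across pairs that share hosts and arrays, Pearson's r was 0.175 and Spearman's rho 0.007.

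**Figure D4:**
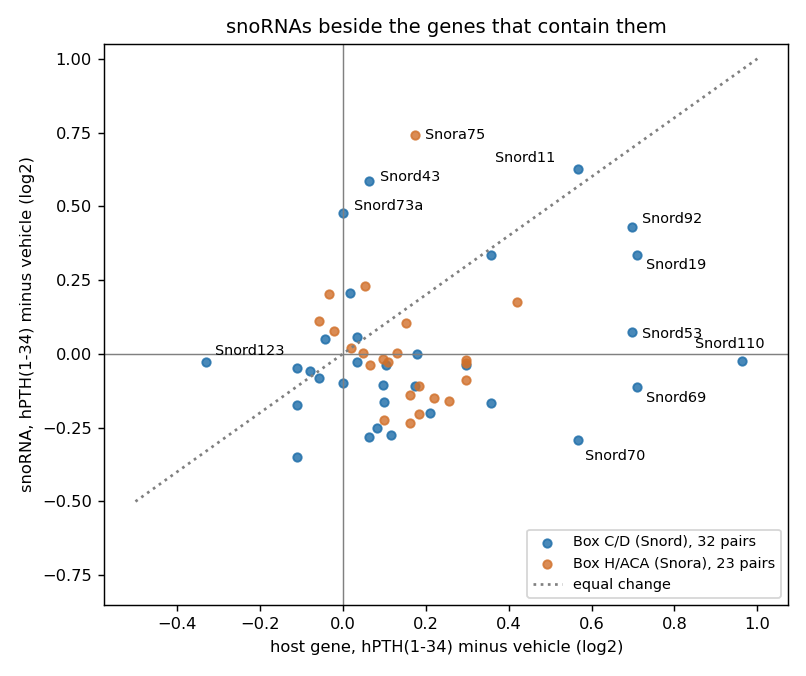
Change of each of 55 snoRNAs (vertical axis) beside the change of the gene that contains it (horizontal axis), both as hPTH(1-34) minus vehicle in log2, with 32 box C/D and 23 box H/ACA pairs and a dotted line of equal change. Snord11 lies near the line, while Snord110 and Snord70 lie well below it, at -0.02 and -0.29 where their hosts are at 0.96 and 0.57.

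The proteins that build, trim and regulate these RNAs were read from 6 lists. Of the 3 box C/D core proteins measured (Nop56, Nop58 and Snu13), 0 passed an adjusted p of 0.05 with hPTH(1-34) and 3 were higher at an unadjusted p under 0.05, beside 0.451% and 5.53% of all clusters, with a median change of 0.57. Nop56 and Nop58 are the hosts picked above for their higher values, so this count is not a separate observation. Snu13 was at 0.23 in its brighter cluster (adjusted p = 0.491) and at -0.25 with its clusters averaged. Of the 4 box H/ACA core proteins, Gar1 (0.62 ± 0.19) and Dkc1 (0.35 ± 0.13), the pseudouridine synthase, were higher at an unadjusted p under 0.05, with adjusted p-values of 0.321 and 0.451, and Nhp2 and Nop10 were at 0.19 and -0.06. Gar1 read 4.15, 4.54 and 4.81 with hPTH(1-34), 4.17, 4.56 and 4.21 with bPTH(7-34), and 3.64, 3.84 and 4.15 with vehicle. Both peptide groups lay at or above the highest vehicle value, and with bPTH(7-34) the difference was 0.44 ± 0.19 (adjusted p = 0.999).

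Among 13 assembly, cap and trafficking factors 12 had a positive change with hPTH(1-34), against 49.9% of all clusters, with a median of 0.14. Of the 13, 0 passed the adjusted threshold and 2 were higher at an unadjusted p under 0.05 (5.53% of all clusters). The list was not tested as a set. Tgs1, which trimethylates the cap of independently transcribed snoRNAs, read 5.41, 5.77 and 5.87 with hPTH(1-34), 5.58, 5.38 and 5.33 with bPTH(7-34), and 5.39, 4.95 and 4.99 with vehicle, a change of 0.57 ± 0.16 (adjusted p = 0.237). Nolc1, a snoRNA particle chaperone, was at 0.43 ± 0.14 (adjusted p = 0.347). Of 13 trimming and exosome genes 3 were higher and 1 lower at an unadjusted p under 0.05, beside 5.53% and 3.78% of all clusters, among them Exosc9 at 0.32 and Exosc8 at -0.29, both subunits of the exosome, with a list median of 0.06. The 7 nonsense-mediated decay factors had a median of -0.04 and none passed an unadjusted p of 0.05, with Upf1 at 0.19 and Smg6 at -0.21. Of 8 regulators of TOP mRNAs, Larp4 (0.42 ± 0.12) and Larp1 (0.32 ± 0.11), both RNA-binding proteins, were higher at an unadjusted p under 0.05 (5.53% of all clusters), with adjusted p-values of 0.276 and 0.367. Myc, which drives many nucleolar genes, had a difference of 0.00. No gene of the 6 lists passed an adjusted p of 0.05 in any of the 3 comparisons, and with bPTH(7-34) the list medians lay between 0.00 and 0.10. At an unadjusted p under 0.05, 2 genes of the lists were higher than vehicle with bPTH(7-34), against 1.86% of all clusters, and 0 were lower. They were the assembly factor Pih1d1 at 0.39 ± 0.09 and the exosome subunit Exosc5 at 0.54 ± 0.19, both with groups that did not overlap and an adjusted p of 0.999.

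**Figure D5:**
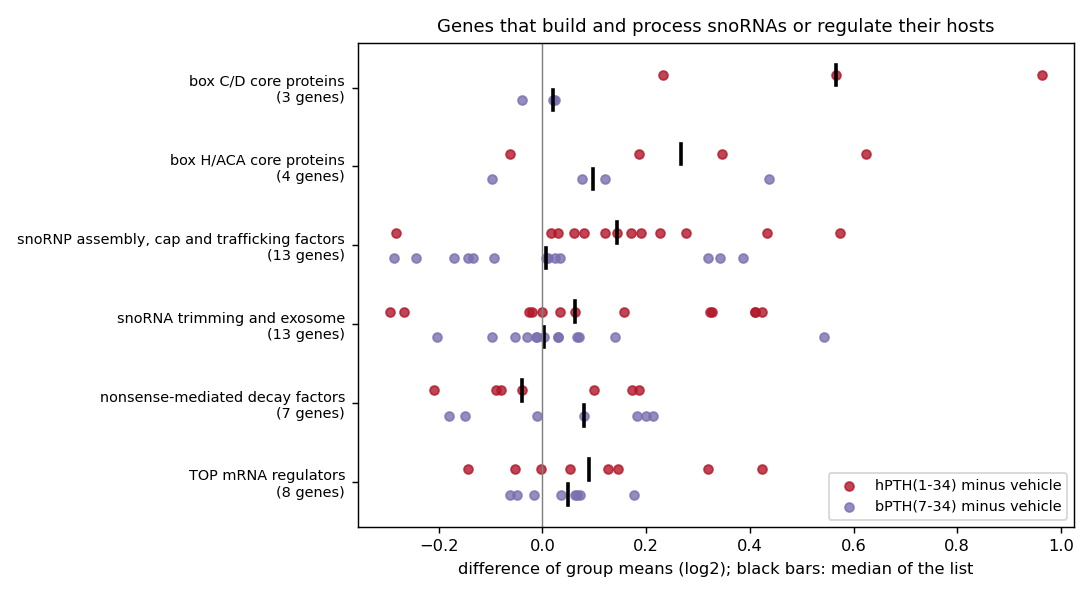
Differences of group means (log2) for genes of 6 lists, with hPTH(1-34) minus vehicle above and bPTH(7-34) minus vehicle below in each row, and a black bar at each median. With hPTH(1-34) the box C/D core proteins lie between 0.23 and 0.96 and the nonsense-mediated decay factors between -0.21 and 0.19.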

How the data were processed

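The series has 9 samples in 3 groups of 3. The deposited values are log2 expression per transcript cluster, made by the authors with Affymetrix Expression Console and RMA per the submitters' processing notes, with versions and genome build not given in the sources used here. RMA corrects background, normalizes and summarizes probes, and the values carry 2 decimals. The table held 41345 clusters. The array's platform annotation gave 1 symbol for 23521, several for 1814 and none for 16010.

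Group differences were estimated in 1 model of the 9 arrays that holds no other term (lmFit and eBayes of limma 3.58.1, R 4.3.3, two-sided). P-values were adjusted by Benjamini-Hochberg over the 23521 clusters within each of 3 comparisons, with a threshold of 0.05, and the procedure was tested on simulated data. Errors beside changes are standard errors of the fit. Arrays have no read depth, so the number of arrays limits the precision.

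Named genes are all Snhg genes, in each snoRNA class the 6, 3 and 3 with the smallest p in the 3 comparisons and the 3 brightest, the hosts of these, and of each list the 2 with the smallest p against vehicle. Members and lists were chosen with earlier results of these data known. Of the list entries, 3 older symbols were updated, and an alias that also names an unrelated gene was dropped. Hosts were to be taken on the same strand, but the gene positions used carry none, so a host is the 1 gene that contains the snoRNA. The fit with array number and the names said to be picked after their values were seen lie outside these rules. Alternatives were another scaling, a filter on low values, all clusters, array weights, a trended robust variance, 6 arrays only, a replicate block, the mean of a gene's clusters, and each array left out.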

Additional observations from a re-analysis of the deposited data

How the results depend on the processing

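Across the 17 alternatives that give a count of members (the mean of a gene's clusters gives medians and single genes alone), 0 of 88 members passed an adjusted p of 0.05 in any comparison, apart from the filter on a mean log2 of at least 3, where 1 (Snord11) did in hPTH(1-34) against vehicle. Without that filter, and with each array left out in turn, the count stayed at 0. The number of all clusters called moved more. In hPTH(1-34) against vehicle, where 106 were called, it was 16 with all clusters of the table tested, 186 with the filter, 166 with array weights, 0 with only the 6 arrays of the comparison, and 0 to 259 with one array left out (259 without hPTH(1-34) array 1, 3 and 2 without hPTH(1-34) arrays 2 and 3, 0 without vehicle array 2 or 3). In hPTH(1-34) against bPTH(7-34), where 109 were called, it was 3, 215, 204 and 0 under the same settings and 2 to 262 with one array left out (262 without hPTH(1-34) array 1, 2 without bPTH(7-34) array 2). The cause was not tested. The Snhg median was 0.0122 under quantile normalization in hPTH(1-34) against vehicle and 0.0504 in hPTH(1-34) against bPTH(7-34). With one array left out it ran from 0.04 to 0.08 in hPTH(1-34) against vehicle, from -0.0233 to 0.0167 in bPTH(7-34) against vehicle and from -0.0033 to 0.17 in hPTH(1-34) against bPTH(7-34). The snoRNA median ran from -0.075 to 0.0033, from -0.15 to 0.017 and from -0.0083 to 0.135 in the same order of comparisons. Snu13 turned to -0.25 in hPTH(1-34) against vehicle when its 2 clusters were averaged. A change of sign where both unadjusted p-values were above 0.05 was not counted as a change of direction.

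With the array number as a replicate block, 112, 0 and 116 clusters were called in the 3 comparisons and 0 members. With the block, Snora73a and Snora73b in hPTH(1-34) against vehicle stayed at -0.14 and -0.23, with adjusted p-values of 0.793 and 0.625 (limma). The labels do not say that a number marks a shared preparation. Deviations of same-numbered arrays from their group means correlated at 0.06 to 0.36 across clusters, above 0.1 in 6 of 9 pairs, and in 17 of 18 cases an array correlated best with its own number in the other group, a hint from the data and not from the design.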
